A study of Rattus norvegicus with 11 samples.

Results

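Matrix metalloproteinases, an aggrecan-cleaving relative and the 4 tissue inhibitors of metalloproteinases were followed across 11 rat soleus libraries. The 9 genes were chosen by symbol, as the inhibitors Timp1, Timp2, Timp3 and Timp4 and the proteases Mmp2, Mmp3, Mmp9, Mmp14 and Adamts1. All 9 were among the 16810 rows of the count table. Of these, 7 passed the filter on low counts and were among the 10814 genes tested, while Mmp3 and Mmp9 did not pass and are given as counts.

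The high-fat group was 5 male Sprague Dawley offspring aged 12 months whose mothers had eaten a lard-based diet rich in sucrose for 3 weeks before mating and through gestation and suckling. The labels give that diet as 23.3% fat in one place and 23.5% in another, with 20% sucrose. The control group was 6 male offspring of the same strain and age whose mothers ate normal chow, given as 6% or 7% fat with 10% sucrose. All 11 offspring ate standard chow after weaning on day 21, their litters were all different, and the labels name no altered gene. High-fat animals 1 to 5 are the rats named C91, H1, C25, H20 and A37 in the labels (columns numbered 1, 3, 4, 5 and 6 by the authors), and control animals 1 to 6 are C73, A110, C60, H10, A89 and A75. The soleus is a slow postural muscle, and the 8 listed slow fibre markers were detected in the libraries, with a summed level of 75204 to 106214 CPM (counts scaled to the library's size) in the high-fat group and 85106 to 105843 CPM in the control group. Of 8 listed fast fibre markers 7 were rows of the table. They summed to 3305 to 26864 CPM (median 9287) in high-fat animals and 1949 to 35232 CPM (median 17328) in control animals. Fast fibre RNA thus varied widely between libraries, while fibre content itself was not measured. Libraries held 10156225 to 15362013 counts. A count of 0 allows up to 3 counts, which is 0.179 to 0.320 CPM, a limit that covers counting error alone.

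Matrix metalloproteinases are zinc enzymes that cut collagens and other proteins of the extracellular matrix, the mesh that carries force between muscle fibres. They are made as inactive precursors, and each TIMP protein blocks an active enzyme by binding its catalytic site. The arrangement has a known exception, in which the membrane enzyme MMP14 holds TIMP2 and uses it to bring in and activate the precursor of MMP2. ADAMTS1 cuts large proteoglycans such as versican and aggrecan. TIMP3, which stays bound to the matrix, also blocks enzymes of the ADAM and ADAMTS families.

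Promoter sequences are shown for Timp1, Timp3 and Adamts1, the members with the smallest p in the diet comparison. They are RefSeq windows on build GRCr8, each of 300 bases with the last 50 after one annotated start, all from genes on the minus strand and printed 5′ to 3′ along the gene. The windows lie at chrX:3771073-3771372 for Timp1, at chr7:19459509-19459808 for Timp3 and at chr11:38427335-38427634 for Adamts1. Capitals mark matches, on either strand (a GC box on the other strand reads CCGCCC), to the AP-1 motif TGAGTCA, to the variant TGAGTAA known from the mouse and human TIMP1 promoters, to the STAT motif TTCNNNGAA, to the GC box GGGCGG and to the TATA box TATAAA.
Timp1: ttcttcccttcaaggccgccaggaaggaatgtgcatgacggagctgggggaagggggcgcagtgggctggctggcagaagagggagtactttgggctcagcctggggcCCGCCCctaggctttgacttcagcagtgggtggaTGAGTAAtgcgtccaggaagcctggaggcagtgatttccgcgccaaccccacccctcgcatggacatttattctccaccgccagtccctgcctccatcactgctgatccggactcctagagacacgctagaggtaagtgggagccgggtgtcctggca
Timp3: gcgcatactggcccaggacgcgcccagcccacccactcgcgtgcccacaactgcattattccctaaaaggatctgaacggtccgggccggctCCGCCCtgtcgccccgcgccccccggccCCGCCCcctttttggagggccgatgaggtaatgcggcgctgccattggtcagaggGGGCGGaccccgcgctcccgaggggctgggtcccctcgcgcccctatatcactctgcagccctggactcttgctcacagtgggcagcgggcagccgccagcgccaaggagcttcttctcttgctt
Adamts1: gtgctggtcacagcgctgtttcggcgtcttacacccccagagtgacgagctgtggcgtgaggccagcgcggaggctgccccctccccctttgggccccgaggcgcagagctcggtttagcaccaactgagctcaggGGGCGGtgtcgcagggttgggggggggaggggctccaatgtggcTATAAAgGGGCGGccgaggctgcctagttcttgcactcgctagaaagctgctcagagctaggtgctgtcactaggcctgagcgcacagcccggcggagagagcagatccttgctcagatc
The start used for Timp1 lies inside the gene's annotated span. Its window held the variant TGAGTAA at position -108 from the start and 1 GC box at -142. The Timp3 window held 3 GC boxes, at -158, -130 and -75. The Adamts1 window held 2 GC boxes at -114 and -63 and TATAAA at -70. No 2 matches overlapped. Of 33469 windows of this length in the rat table, 2.9% held TGAGTAA, 33.1% a GC box, 14.2% a TATA box, 4.63% TGAGTCA and 8.87% the STAT motif, the last pair being without a match in these 3 windows.

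The main comparison asked how these transcripts differed with the mother's diet. All 4 inhibitors had a higher mean in high-fat offspring, by 1.22 to 1.75-fold, while the matrix metalloproteinases Mmp2 and Mmp14 were within 1.06-fold of control and Adamts1 was 1.47-fold higher on average. None of the 7 tested members passed edgeR's quasi-likelihood test after Benjamini-Hochberg adjustment over 10814 genes, the adjusted p being at least 0.974 for each. In that test 0 genes of the whole table were called (0%). At an unadjusted p under 0.05 the test had 373 genes higher (3.45%) and 150 lower (1.39%), or 4.84% in either direction, and of the members Timp1 and Timp3 stood on the higher side and none on the lower. Other tests run on the same counts called 7 genes with DESeq2 (0.0647%), 8 with the likelihood ratio form of edgeR (0.074%) and 0 with limma voom, and no member was among them. In none of the members were the 2 groups free of overlap, against 0.37% of all genes tested.

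Timp1 encodes a secreted inhibitor that is inducible by cytokines and growth factors. Its level was 32.9, 11.2, 32.1, 45.9 and 49.1 CPM in high-fat animals 1 to 5, and its lowest, median and highest control values were 12.3, 21.2 and 25.7 CPM. High-fat animals 1, 3, 4 and 5 thus lay above every control animal and high-fat animal 2 lay below every one. The group means were 34.2 ± 15.0 CPM in high-fat offspring (SD, n = 5) and 19.7 ± 5.21 CPM in control offspring (SD, n = 6). The log2 fold change was 0.81 ± 0.30 (SE), with adjusted p = 0.974 in edgeR's quasi-likelihood test. Of the 10814 genes tested, 140 (1.29%) had a log2 fold change at least as large. Without high-fat animal 2 the Timp1 difference was 1.03 (adjusted p = 0.249 in the same edgeR test), and without high-fat animals 4 and 5 together it was 0.37 ± 0.31. RefSeq on GRCr8 places Timp1 at chrX:3766509-3772578, Timp2 at chr10:104041604-104089214, Timp3 at chr7:19408539-19459558 and Timp4 at chr4:149978667-149985350. Each span overlaps that of another gene: Syn1 had 575 counts over all animals against 3898 for Timp1, Ddc8 (now Cep295nl) 40 against 28360 for Timp2, Syn3 24 against 12109 for Timp3 and Syn2 262 against 5350 for Timp4. Whether the authors' counting separated the strands is not stated in the labels.

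Timp3 encodes the matrix-bound inhibitor. Its values in high-fat animals 1 to 5 were 75.2, 149, 129.6, 76.7 and 89.1 CPM, and its lowest, median and highest control values were 42.1, 69.8 and 108 CPM. All 5 high-fat animals exceeded the control mean, 4 of the 6 control animals lay below the lowest high-fat animal, and control animals 4 and 5 lay among the high-fat values. The means were 104 ± 33.6 CPM (SD, n = 5) in high-fat offspring and 72.9 ± 21.1 CPM (SD, n = 6) in control offspring, a log2 fold change of 0.51 ± 0.23 (adjusted p = 0.974, edgeR quasi-likelihood). This Timp3 difference ranged from 0.34 without high-fat animal 2 to 0.63 without control animal 5. It was 0.69 ± 0.26 without high-fat animals 4 and 5, the animals with the highest Timp1.

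Timp2, the partner of MMP14 in activating MMP2, had 174.8, 128, 251, 231 and 312 CPM in high-fat animals 1 to 5, with control values of 93.1, 173 and 265 CPM (lowest, median and highest). High-fat animal 5 was highest of all animals and control animal 6 lowest, and the groups overlapped elsewhere. Its log2 fold change was 0.29 ± 0.26 with all animals, 0.13 when high-fat animal 5 was left out, and 0.04 ± 0.29 without high-fat animals 4 and 5. Timp4, an inhibitor described mainly in heart and other contractile tissue, had 47.2, 74.0, 59.5, 12.8 and 33.7 CPM in high-fat animals 1 to 5 and 21.7, 33.5 and 56.9 CPM (lowest, median and highest) in control animals. High-fat animals 2 and 3 were above and high-fat animal 4 below all control animals. The Timp4 log2 fold change was 0.37 ± 0.35 with all animals, 0.61 ± 0.26 without high-fat animal 4, and 0.13 when high-fat animal 2 was left out. In both genes the differences with all animals were close to or only slightly above their standard errors.

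Mmp2 encodes a gelatinase that fibroblasts make constitutively. Its level was 120.1, 92.2, 162, 179.9 and 212 CPM in high-fat animals 1 to 5 and 82.2, 134 and 231 CPM (lowest, median and highest) in control animals. Every high-fat value lay inside the control range. The log2 fold change was 0.079 ± 0.29 (adjusted p = 0.990, edgeR quasi-likelihood), and it turned to -0.22 ± 0.33 without high-fat animals 4 and 5. Mmp14, the membrane-anchored activator of MMP2, had 26.1, 17.5, 29.2, 41.7 and 65.3 CPM in high-fat animals 1 to 5 against 17.8, 30.4 and 74.1 CPM (lowest, median and highest) in control animals. The same annotation places Mmp2 at chr19:30327643-30355856, Mmp14 at chr15:31857824-31867049 and Adamts1 at chr11:38418565-38427384. The Mmp14 ranges coincided almost completely, and the spread within either group was about as wide, with a coefficient of variation of 51.5% in high-fat and 54.3% in control animals. The log2 fold change of Mmp14 was -0.067 ± 0.38 (adjusted p = 0.994, edgeR quasi-likelihood) with all animals, -0.64 ± 0.39 without high-fat animals 4 and 5, and 0.24 without control animal 3, the control animal with the highest Mmp14.

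Adamts1 encodes a secreted proteoglycanase that many cells induce acutely. Its level was 27.5, 34.4, 45.6, 93.9 and 32.0 CPM in high-fat animals 1 to 5, while the lowest, median and highest control values were 24.6, 30.1 and 45.3 CPM. High-fat animal 4 had more than any other animal and the remaining high-fat animals lay within or at the edge of the control range. The log2 fold change of 0.56 ± 0.29 (adjusted p = 0.974, edgeR quasi-likelihood) was 0.14 ± 0.18 without that animal.

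Mmp9, the gelatinase stored in neutrophils, had 1, 1, 0, 20 and 0 reads in high-fat animals 1 to 5 and 0 to 5 reads in control animals. High-fat animal 4 alone held 20 of the 22 reads of its group, at 1.27 CPM. In a fit without the count filter the Mmp9 log2 fold change was 0.80 ± 1.07. Mmp3, the broad-acting stromelysin, had 4 reads over the 5 high-fat animals and 6 over the 6 control animals, at most 2 in any library, so it was at or under the floor throughout and no fold is given. Mmp8, the neutrophil collagenase and not one of the 9, was singled out after its values were seen: it had 46 reads in high-fat animal 4, 4 in the other 4 high-fat animals and 4 over all control animals. The cytokine gene Il6, singled out in the same way, had 231 reads in high-fat animal 4 of 237 in its group, and 2 over all control animals. In the same library the summed level of the 9 listed neutrophil markers was 66.9 CPM, against 7.46 to 33.0 CPM in the other high-fat animals and 4.52 to 12.0 CPM in the control animals. Of those 9 markers, 4 passed the count filter, and all 4 were higher in high-fat offspring. Among the rest, Cxcr2 had 40 reads in the high-fat group (27 in high-fat animal 4) and 7 in the control group, and Elane 1 and 0. Mpo, Ngp and Camp went the other way, with 21, 5 and 5 reads in the high-fat group and 29, 16 and 9 in the control group. None of the 9 was at 0 in all libraries, and the part of neutrophil RNA in the Mmp9 and Adamts1 values was not tested.

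**Figure D1:**
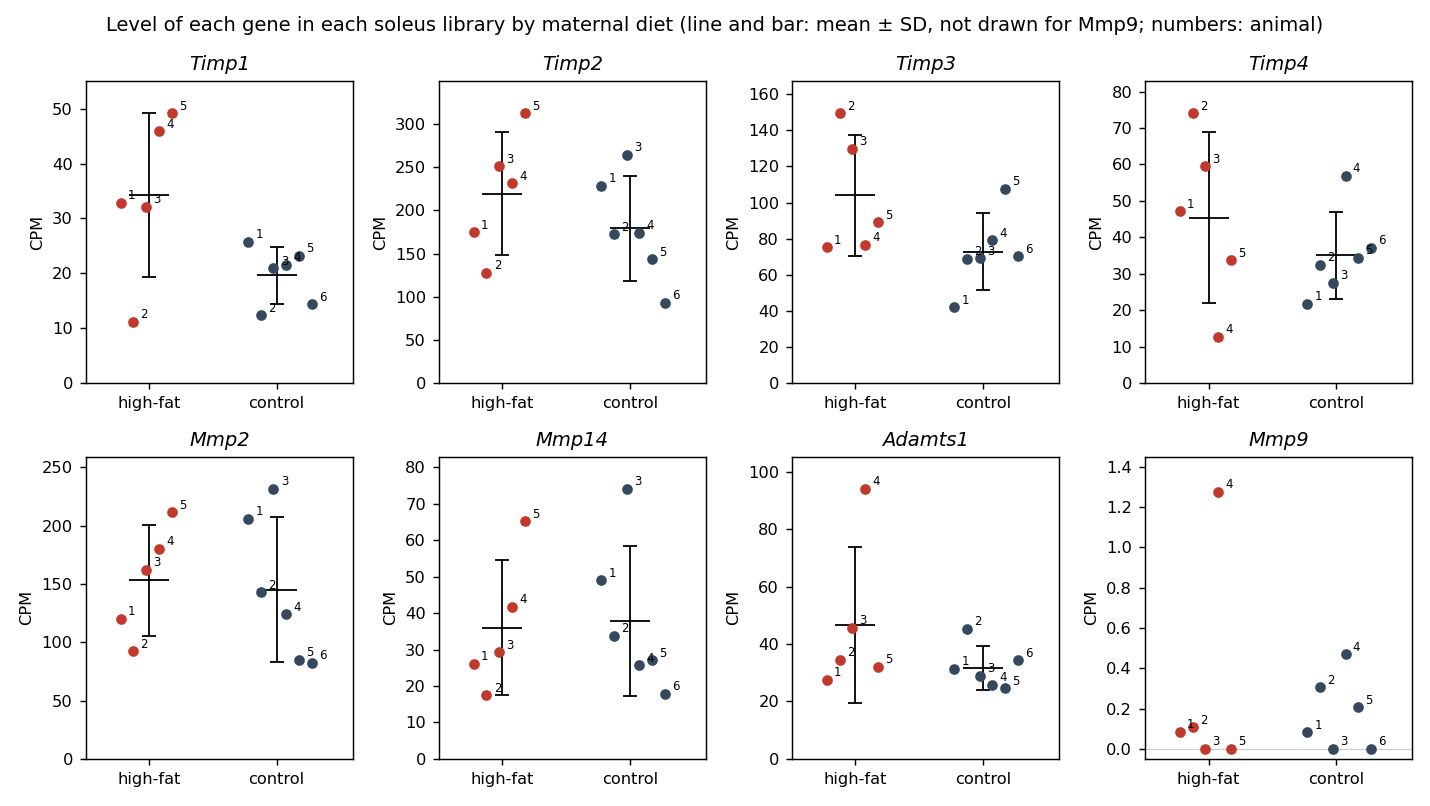
Level (CPM, linear axis from 0) of 8 of the genes in each library, high-fat offspring at left and control offspring at right, with numbers naming the animals and bars giving mean ± SD, left out for Mmp9. High-fat animals 1, 3, 4 and 5 are above all control animals for Timp1, high-fat animal 4 stands alone for Adamts1 (93.9 CPM) and Mmp9 (1.27 CPM), and the Mmp2 and Mmp14 groups cover the same range.

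The libraries also differed in the RNA of stromal cells, and in bulk tissue more cells of a type and more RNA per cell cannot be told apart. The 8 listed fibroblast markers, all detected, summed to 1067 to 3024 CPM in high-fat animals (median 2534) and to 856 to 3017 CPM in control animals (median 1707). The 10 macrophage markers, all detected, summed to 235 to 1497 CPM (median 892) in high-fat animals and 295 to 851 CPM (median 448) in control animals. Of 6 tendon markers 4 were rows of the table, and they summed to 243 to 643.5 CPM (median 603) in high-fat animals and 135 to 580.2 CPM (median 249.3) in control animals. The 5 satellite cell markers summed to 109 to 205 CPM (median 165) in high-fat animals and 108 to 155 CPM (median 120.4) in control animals. For each of the macrophage, tendon and satellite cell lists, 3 of 5 high-fat animals were above every control animal. A sum follows its most abundant genes. Gene by gene, 4 of 8 fibroblast markers were higher and 4 lower (median log2 fold change 0.17), and 3 tendon markers were higher and 1 lower (0.047). All 10 macrophage markers (0.68) and all 5 satellite cell markers (0.26) were higher, and all 7 fast fibre markers were lower (-0.74). None of these was called. The 6 Schwann cell markers summed to 1920 CPM in control animal 5, against 125 to 315 CPM in high-fat animals and 130.3 to 289 CPM in the other control animals. No marker of these lists was at 0 in all libraries, and their part in the member differences was not tested beyond the fibroblast fit given next. High-fat animal 2 had the lowest sum of its group for both the fibroblast and the macrophage list and also the lowest Timp1, Timp2, Mmp2 and Mmp14, whereas high-fat animal 5 had the highest sum for both and the highest value of its group for those 4 genes. When the log2 fibroblast sum was added to the model, a choice made with the data in view, the fit gave log2 fold changes of 0.58 ± 0.26 for Timp1, 0.13 ± 0.09 for Timp2, 0.59 ± 0.21 for Timp3 and 0.45 ± 0.30 for Timp4. In that fit Mmp2 was -0.066 ± 0.10, Mmp14 -0.28 ± 0.16 and Adamts1 0.46 ± 0.29. The standard errors of Mmp2, Timp2 and Mmp14 were well below those without the covariate, and those of Timp1, Timp3, Timp4 and Adamts1 were close to them. No member passed adjustment in it.

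**Figure D2:**
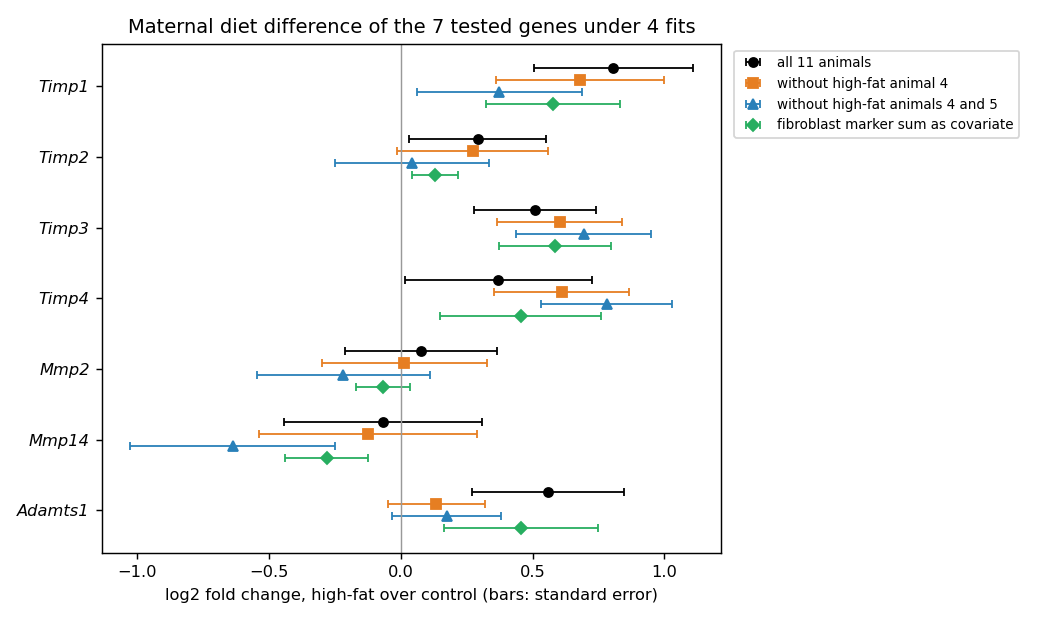
Log2 fold change, high-fat over control, of the 7 tested genes with standard errors, from fits on all 11 animals, without high-fat animal 4, without high-fat animals 4 and 5, and with the fibroblast marker sum as a covariate. The 4 inhibitors stay to the right of 0 in each fit, Mmp2 and Mmp14 lie around or left of it, and Adamts1 moves from 0.56 to 0.14 without high-fat animal 4.

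The balance of proteases to inhibitors was summarised per animal as the mean log2 CPM of Mmp2, Mmp14 and Adamts1 minus that of the 4 inhibitors. Transcript lengths cancel when animals are compared on this scale, so only differences between animals are read from it. It was -0.60, -0.73, -0.56, 0.64 and -0.11 in high-fat animals 1 to 5, and -0.63, 0.07 and 0.50 in control animals (lowest, median and highest). In 4 of 5 high-fat animals the balance lay under the mean of the control animals, and it was the highest of all in high-fat animal 4. Its means were -0.27 ± 0.56 (SD, n = 5) in high-fat and -0.01 ± 0.52 (SD, n = 6) in control offspring, a difference of -0.26 that is smaller than the spread between animals, and -0.49 without high-fat animal 4. No test was made of it, because the genes had been chosen with earlier results known.

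Taken apart, the inhibitor side separated the groups more than the protease side. Centred on the 11 animals, the mean log2 level of the inhibitors was 0.23 ± 0.27 in high-fat and -0.19 ± 0.22 in control offspring, and each of the 5 high-fat animals exceeded the control mean, 3 of them (animals 1, 3 and 5) exceeding every control animal. The animals above every control animal were 1, 4 and 5 for the macrophage and satellite cell marker sums and 3, 4 and 5 for the tendon sum. The mean of the proteases was 0.09 ± 0.51 in high-fat and -0.08 ± 0.46 in control offspring, with 3 of 5 high-fat animals above the control mean. The median log2 fold change was 0.44 over the 4 inhibitors and 0.079 over the 3 proteases, against 0.00393 over all genes tested.

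**Figure D3:**
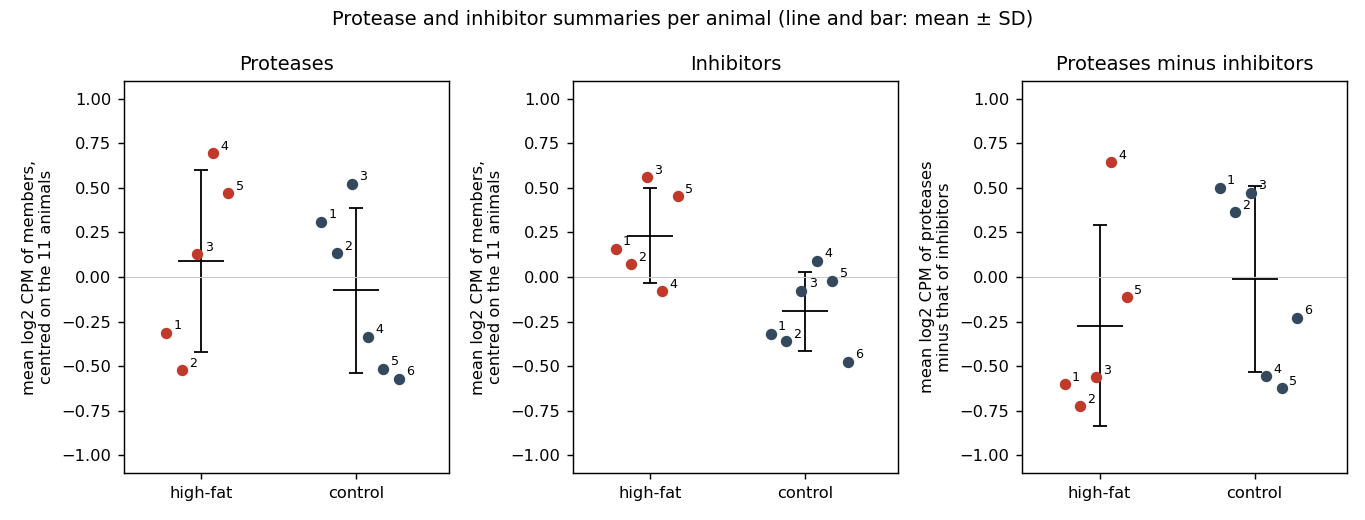
Mean log2 CPM of the 3 tested proteases and of the 4 inhibitors, each centred on the 11 animals, and the difference of the 2 uncentred means, with mean ± SD. Inhibitor values run from -0.08 to 0.56 in high-fat and from -0.47 to 0.09 in control animals, and the balance of high-fat animal 4 (0.64) lies apart from the other high-fat animals.

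Ratios of known partners were examined next, on the log2 scale and again as a description. The ratio of Mmp14 to Timp2 was -2.73, -2.86, -3.10, -2.47 and -2.26 in high-fat animals 1 to 5, and -2.76, -2.36 and -1.84 (lowest, median and highest) in control animals. Its mean was -2.68 ± 0.33 (SD, n = 5) in high-fat and -2.32 ± 0.30 (SD, n = 6) in control offspring, a difference of -0.36, with 4 of 5 high-fat animals under the control mean. The ratio of Mmp2 to Timp2 lay between -0.63 and -0.36 in high-fat and between -0.76 and -0.15 in control animals, with means of -0.51 ± 0.10 and -0.34 ± 0.24, and all 5 high-fat animals were below the control mean. The difference was about as large as the wider of the 2 SDs for Mmp14 and smaller than it for Mmp2. The ratio of Adamts1 to Timp3 was 0.29 in high-fat animal 4 and -2.11 to -1.45 in the other high-fat animals, against -2.12 to -0.42 in control animals, and its mean difference of -0.075 had no settled sign, being -0.46 without that animal and 0.14, 0.076 and 0.040 when high-fat animal 2, control animal 1 or control animal 2 was left out.

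The members did not vary as one block across animals. Over the 11 animals the activation partners ran together: Mmp14 with Mmp2 at Pearson's r = 0.92 (permutation p = 0.00011, adjusted over 6 pairs 0.00033; Spearman's rho = 0.91, permutation p = 0.00023, adjusted 0.00075). Mmp2 with Timp2 had r = 0.93 (permutation p = 2e-05, adjusted 0.00012) and rho = 0.91 (permutation p = 0.00025, adjusted 0.00075). Mmp14 with Timp2 had r = 0.87 (permutation p = 0.00043, adjusted 0.00086) and rho = 0.83 (permutation p = 0.00276, adjusted 0.00552). Without the 2 animals farthest from the median of the first gene, r was 0.88 for the first pair, 0.92 for the second and 0.82 for the third. With each value centred on its diet group these r were 0.93, 0.94 and 0.93, so the relation did not rest on the difference between group means. The centred r pool all 11 animals, and r was not computed inside either group. The random pairings ask only whether 2 genes are unrelated, and how often other pairs of genes reach such r was not counted. Timp2 ran closer with Fstl1 (0.99), and Mmp2 closer with Adamts2 (0.98), than with either partner. The pairs were drawn from members chosen with earlier results known. The 3 genes share library depth and scaling. In each of them the highest control values were those of control animals 3 and 1, which also had the highest fibroblast marker sums of that group (3017 and 2683 CPM), and the part of stromal RNA in these correlations was not tested.

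Timp3 and Timp4 followed a different order, with r = 0.63 (permutation p = 0.0397, adjusted 0.0596) and rho = 0.68 (permutation p = 0.025, adjusted 0.0376). Without high-fat animal 2 and control animal 1, the farthest in Timp3, r was 0.38, so over all animals the relation was weaker without those 2. It was 0.49 without high-fat animal 2 alone and 0.57 without control animal 1 alone. Leaving out the extremes of Timp3 also narrows its range, so the fall in r cannot show how much rests on them. With values centred on each diet group r was 0.65 (permutation p adjusted 0.0443), and 0.73 without the 2 animals then farthest in Timp3. The centred rho was 0.64 and did not pass (permutation p adjusted 0.0596). Leaving out high-fat animal 4 alone gave r = 0.80 (permutation p adjusted 0.00904). Adamts1 followed neither inhibitor set against it, with r = 0.26 for Timp1 (permutation p = 0.451, adjusted 0.542; rho = 0.01, permutation p = 0.990, adjusted 0.990) and 0.03 for Timp3 (permutation p = 0.928, adjusted 0.928; rho = 0.06, permutation p = 0.861, adjusted 0.990). Without the farthest 2 animals these were 0.40 and -0.04. Animals sharing a first letter of the name, of which there are 3 sets of 3 or 4 animals, were too few for values within a set.

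**Figure D4:**
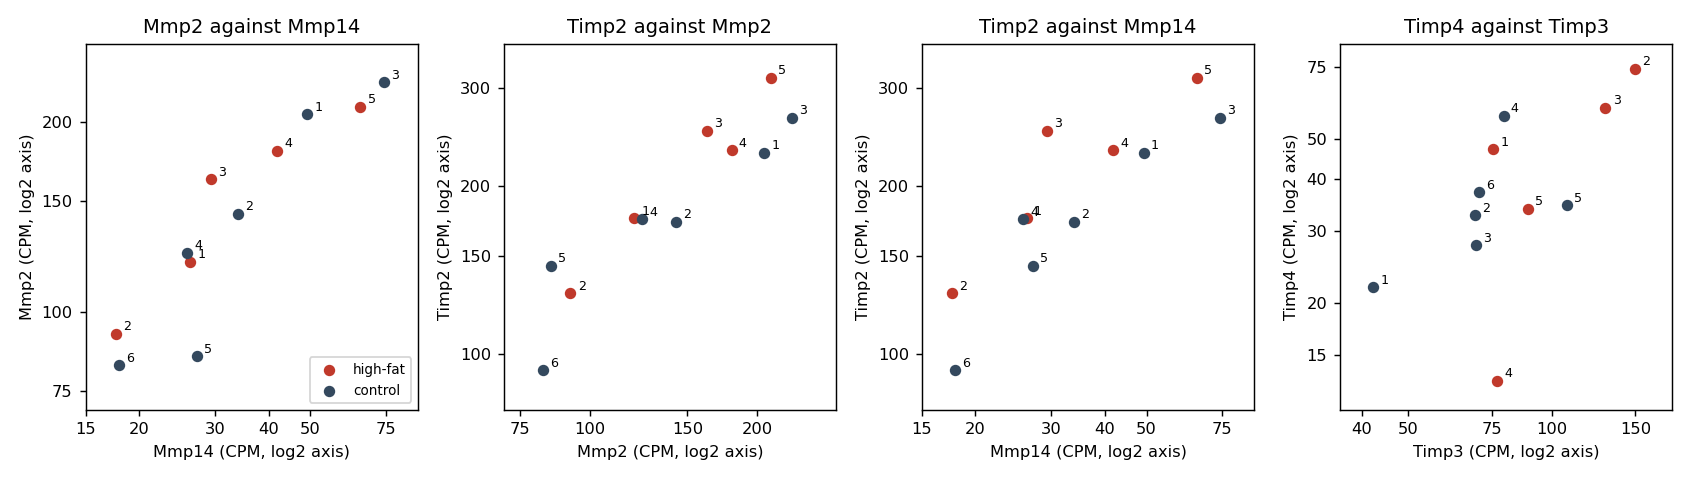
Pairs of genes across the 11 animals on log2 axes of CPM, high-fat animals in red and control animals in dark blue, numbered by animal. Mmp14, Mmp2 and Timp2 rank the animals alike in both groups (r of 0.87 to 0.93 over all 11 animals). Timp3 and Timp4 do so less closely (r = 0.63), with high-fat animal 4 low in Timp4.

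**Figure D5:**
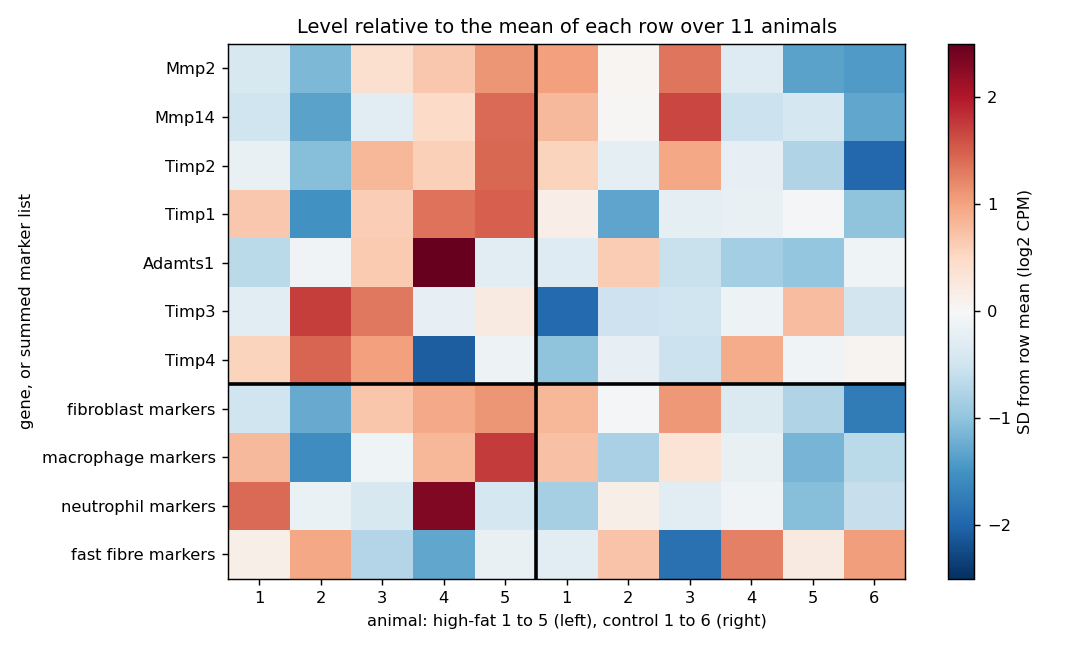
Levels of the 7 tested genes and of 4 summed marker lists, as SDs from the mean of each row over 11 animals on the log2 CPM scale, high-fat animals at left of the line. Mmp2, Mmp14 and Timp2 share their high and low animals with the fibroblast markers, Adamts1 and the neutrophil markers peak in high-fat animal 4, and Timp3 and Timp4 are highest in high-fat animals 2 and 3.

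The genes of the whole table whose levels ran closest to each member were taken by Pearson's r over the 11 animals, as a description of likeness. Timp2 ran closest with Fstl1 and Loxl1 (r of 0.99 and 0.98), a secreted glycoprotein gene and an elastin cross-linking enzyme gene. Mmp2 ran closest with Adamts2, the procollagen N-propeptidase, and Cercam (0.98 and 0.97), and Mmp14 with Trim37 and Clock (0.95 and 0.94). Timp1 ran closest with Sema3d and Ugt1a7c (0.94 and 0.92), Timp3 with the glucose transporter gene Slc2a3 and the laminin chain gene Lama5 (0.94 and 0.90), and Timp4 with RGD1560065 and the connexin gene Gja5 (0.93 and 0.92). Adamts1 ran closest with Vps11 and Junb, an AP-1 subunit (0.93 and 0.92). High-fat animal 4 had by far the highest Adamts1 (93.9 CPM), and r was not computed without that animal. Each gene named here was picked as closest out of all genes tested, over only 11 animals, and none of these r was tested.

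Other genes of matrix turnover were then read from the same fit, by lists of textbook members. None was called in any list by edgeR's quasi-likelihood test (adjusted p of at least 0.974 for each one named), and named genes with an unadjusted p under 0.05 were Mmp15 on the lower side and Adamts9, Plat, Osmr, Stat3 and Junb on the higher. Of 6 tested metalloproteinases outside the 9, 3 were higher and 3 lower (median log2 fold change 0.00446). Mmp15, a second membrane-type enzyme, stood at 24.7 ± 7.22 CPM in high-fat and 34.8 ± 5.39 CPM in control offspring, a log2 fold change of -0.50 ± 0.18, with 3 of 5 high-fat animals below all control animals. Mmp19 (0.21 ± 0.23) and Mmp28 (-0.16 ± 0.39, or 0.054 without high-fat animal 4) were next by p. Over all genes tested 50.9% had a log2 fold change above 0.

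Of 9 other ADAMTS genes, 5 were higher and 4 lower. Adamts9, a proteoglycanase related to Adamts1, stood at 16.6 ± 9.06 CPM in high-fat and 8.64 ± 2.59 CPM in control offspring. Its log2 fold change was 0.94 ± 0.37, or 0.69 without high-fat animal 4. Of the 5 high-fat animals, 4 lay above every control animal and 1 below every one. Adamts4, an aggrecanase, had 0.94 ± 0.63 with all animals and -0.22 without high-fat animal 4, the same animal that carried the Adamts1 difference, and Adamts5 had 0.33 ± 0.33 with all animals and -0.17 without high-fat animals 4 and 5. All 5 tested ADAM sheddase genes were higher by a median of 0.16, among them Adam9 (0.22 ± 0.11), Adam19 (0.58 ± 0.41, or -0.042 without high-fat animal 5) and Adam10 (0.16 ± 0.14).

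Genes of plasminogen activation, which feeds into activation of several metalloproteinase precursors, and other protease regulators were higher in 14 of 15 tested members, by a median of 0.30. Plat, the tissue plasminogen activator gene, stood at 80.8 ± 36.4 CPM in high-fat and 48.0 ± 8.53 CPM in control offspring (log2 fold change 0.75 ± 0.23), the smallest p in these lists, with 2 of 5 high-fat animals above every control animal, and its log2 fold change was 0.45 without high-fat animal 1. Tfpi2, a serine protease inhibitor gene, had 0.66 ± 0.33, or 0.25 without high-fat animal 4.

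Matrix substrates were higher in 10 of 15 tested genes. Their median was 0.27 with all animals, 0.12 when high-fat animal 5 was left out, and -0.14 without high-fat animals 4 and 5. They included decorin, Dcn, at 0.58 ± 0.33 (0.21 without high-fat animals 4 and 5, as in the next brackets), the laminin chain gene Lamc1 at 0.29 ± 0.18 (0.064) and Vcan, the versican cut by ADAMTS1, at 0.44 ± 0.30 (0.21). Of 11 tested AP-1, cytokine and growth factor genes that act upstream of these enzymes, 8 were higher (median 0.28). The oncostatin M receptor gene Osmr had 0.73 ± 0.26, the transcription factor gene Stat3 0.30 ± 0.11 and Junb 0.99 ± 0.44. Without high-fat animal 4 these 3 were 0.42, 0.21 and 0.18.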

How the data were processed

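Per the labels' protocols, poly(A) RNA from 2 µg of total RNA was sequenced for 36 cycles. The authors deposited 1 table of raw counts per gene symbol. BWA, HTSeq, FastQC and edgeR are named, per the submitters' processing notes, with no version given; genome build, annotation and strand setting of the counting are not stated there. Table columns were matched to animals by name and grouped by the diet label, and replicate numbers only name animals.

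The filterByExpr function of edgeR, given the group, left 10814 of 16810 genes, which were scaled by TMM and tested with the quasi-likelihood F test over the whole table, with p-values adjusted by Benjamini-Hochberg and called under 0.05. Standard errors were obtained as the size of the log2 fold change over the square root of the F statistic. CPM are TMM-scaled, and log2 CPM for balance, ratios and correlations used a prior count of 2. Correlations used 100000 random pairings, two-sided. In simulated counts the fit recovered 25% of 80 genes changed 1.5-fold, 67.9% of 53 changed 2-fold and 96.8% of 63 changed 4-fold. It called 0.0855% of the unchanged genes. Changes of 1.5-fold were thus mostly missed, and the largest fold of a tested member was 1.75. Named genes were the 9 members, up to 3 genes of each list by p, and the 2 closest genes to each member; 1 gene that the rule picks is not reported here. The members and lists were chosen with earlier results of these data known. RefSeq tables are of GRCr8. Transcript lengths were not used, so levels are not compared between genes. The software was SciPy 1.17.1, pandas 2.3.3, NumPy 2.4.6 and Python 3.11.15, with DESeq2 1.42.0, limma 3.58.1 and edgeR 4.0.16 in R 4.3.3. Alternatives were other scalings, filters and tests, covariates and leaving out animals.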

Additional observations from a re-analysis of the deposited data

Results flagged for a closer look

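In 26 sets of animals, 1 animal stood apart from the rest of its group by Dixon's criterion in 3, all of them high-fat animal 4, where chance gives about 1 in 20 sets and the sets share animals. These were its Adamts1 level of 93.9 CPM, its Mmp9 level of 1.27 CPM (20 reads) and its log2 ratio of Adamts1 to Timp3 of 0.29. No control animal stood apart in this way within these sets. The marker sums, among them the Schwann cell sum of control animal 5 (1920 CPM), were not part of them.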

How the results depend on the processing

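DESeq2 called 7 genes and edgeR's likelihood ratio test 8 where the quasi-likelihood test called 0, and no member was called under any of 24 alternatives. In each of these the mean of Timp1, Timp2, Timp3, Timp4 and Adamts1 stayed higher in high-fat offspring. The sign of Mmp2 turned with the fibroblast covariate (-0.066) and without high-fat animals 4 and 5 (-0.22), and ran from -0.066 to 0.26 without 1 animal. That of Mmp14 turned when the model held the initial letter of each name (0.089) and ran from -0.40 to 0.24 without 1 animal. The r of Timp3 with Timp4 passed its test with values centred within diet (0.65) and without high-fat animals 4 and 5 (0.82). Without 1 animal it ran from 0.49 to 0.80 (largest adjusted permutation p 0.226). Of those fits it passed in 1, the one without high-fat animal 4. With library size scaling the r was 0.58 and did not pass (permutation p adjusted 0.0902). That of Timp3 with Adamts1 was -0.25 when centred and -0.075 to 0.16 without 1 animal, and that of Timp1 with Adamts1 was -0.29 without high-fat animals 4 and 5 and -0.24 to 0.41 without 1 animal. The balance difference ran from -0.49 to -0.15 without 1 animal and was -0.62 without high-fat animals 4 and 5, and the median log2 fold change was then -0.27 for the other ADAMTS genes and -0.14 for the matrix substrates. The difference in the ratio of Adamts1 to Timp3 ran from -0.46 to 0.14 without 1 animal. The cause of these shifts was not tested. Sample labels carry no replicate numbers, but the deposited columns do, and 5 numbers occur in both diet groups. With that number as a replicate block, added after the data were seen, 0 genes and 0 members were called and the log2 fold change was 0.58 for Timp1, 0.30 for Timp2, 0.51 for Timp3, 0.22 for Timp4, 0.16 for Mmp2, -0.046 for Mmp14 and 0.53 for Adamts1. Same-numbered animals did not deviate together (correlations of -0.35 to 0.037 across genes), none of the 5 high-fat animals was closest to its own number, and their litters differ. Depth leaves Mmp3 and Mmp9 without a usable comparison.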
